A study of Canis lupus familiaris with 26 samples.

Results

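FASLG, FAS and CRADD encode a ligand, a receptor and an adaptor of death receptor signalling, and their transcripts were followed here in the canine corpus luteum (CL) over the first 30 days after ovulation. They are 3 of the 19856 genes counted in each of 26 CL libraries, and were taken by their symbols. The files identify genes only by Ensembl number, so FASLG (ENSCAFG00000014678), FAS (ENSCAFG00000015712) and CRADD (ENSCAFG00000031691) were found through the study's supplementary tables, which pair numbers with symbols only for genes the study selected on these same samples. A call on any of the 3 genes is therefore not independent evidence of a change.

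FASLG (Fas ligand) is a transmembrane protein of the tumour necrosis factor family that is best known from activated T cells and natural killer cells. On binding FAS, it clusters the death domains of the receptor inside the target cell, which recruits an adaptor and initiator caspases and can end in apoptosis. CRADD (also called RAIDD) is an adaptor that carries a death domain and a caspase recruitment domain, and it is best known for bringing caspase 2 into a signalling complex. The CL is a transient gland that makes progesterone, and the Fas system has long been studied in relation to the removal of luteal cells at its regression.

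The study asked how blocking prostaglandin synthesis alters the transcriptome of the canine CL over these days. Mixed-breed bitches of different ages, in spontaneous oestrus, received orally each day either firocoxib (Previcox), an inhibitor of cyclooxygenase 2 (PTGS2), at 10 mg/kg or no active compound. Control bitches are described as having been given a placebo in the treatment protocol and as untreated in the design text. CL were collected at ovariohysterectomy on day 5 (4 control and 4 treated bitches), day 10, day 20 or day 30 (3 control and 3 treated bitches at each), so that each of the 8 groups differs in day, treatment or both and treatment lasted as long as the day states. Poly-A selected RNA was sequenced from trimmed CL tissue, so a lower level in these bulk samples could be fewer cells of a type or less RNA per cell, which cannot be told apart. Samples that the study set aside as outliers were not analysed here.

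Reads assigned to genes ranged from 12831896 to 22658950 per library. Markers of luteal cells (INHA, LHCGR and PRLR, the 3 of 8 listed markers that had an identifier) were found in every group, with summed levels from 276 to 1221 CPM. All levels are CPM, read counts divided by a library size that was scaled by trimmed mean of M-values (TMM) factors, unless reads are named, and differences were tested with edgeR's quasi-likelihood test across all genes kept. A gene was called at an unadjusted P below 0.01 and a false discovery rate (FDR) below 0.1. Transcript lengths were not used here, so the level of a gene is compared between samples. Where genes are set side by side, the values stand for reads and not for amounts of transcript.

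The precision differed widely between the 3 genes. FASLG rested on 0 to 45 reads per library with a median of 14.5, and its mean CPM was above that of only 9.19% of the 14171 genes kept over all samples. FAS had 72 to 426 reads (median 132) and CRADD 62 to 852 reads (median 281.5). A FASLG value was therefore uncertain from counting alone. The 12 reads in day 20 control replicate 2, for example, stood for 0.731 CPM with an exact Poisson 95% interval of 0.378 to 1.28 CPM, an interval that covers counting error only.

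Levels of the ligand FASLG moved up and down across the 8 groups without a steady course. In day 5 controls FASLG was 0.922, 2.11, 0.414 and 1.08 CPM in replicates 1, 3, 4 and 5. In day 5 treated CL it was 0.0713, 0.360, 0.598 and 0.399 CPM in replicates 1, 2, 4 and 5. On day 5 the treated values lay mostly below the controls, and only treated replicate 4 stood above the lowest control. On day 10 the controls had 0.465, 1.05 and 1.12 CPM (replicates 2, 3 and 4) and the treated CL 1.83, 1.92 and 2.09 CPM (replicates 1, 4 and 5). These 3 treated samples held the highest group mean of FASLG in the series, 1.95 ± 0.133 CPM (SD, n = 3), and no control of that day reached them.

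On day 20, FASLG reads were nearly absent from 2 of the 3 controls. Control replicate 1 had 0 reads in its library, which allows up to 0.180 CPM (3 reads), control replicate 3 had 1 read (0.0527 CPM), and control replicate 2 had 0.731 CPM. Day 20 treated CL had 0.861, 1.59 and 1.37 CPM in replicates 2, 3 and 4, all above the highest control. On day 30 the ranges overlapped, with 0.161, 0.688 and 0.934 CPM in controls (replicates 2, 3 and 4) and 0.933, 0.424 and 0.580 CPM in treated CL (replicates 2, 4 and 5). Ordered by mean, the groups ran from day 20 control (0.261 CPM) over day 5 treated, day 30 control, day 30 treated, day 10 control, day 5 control and day 20 treated (1.27 CPM) to day 10 treated. In that order the ranges of each group and the next overlapped, except for day 20 treated and day 10 treated.

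**Figure D1:**
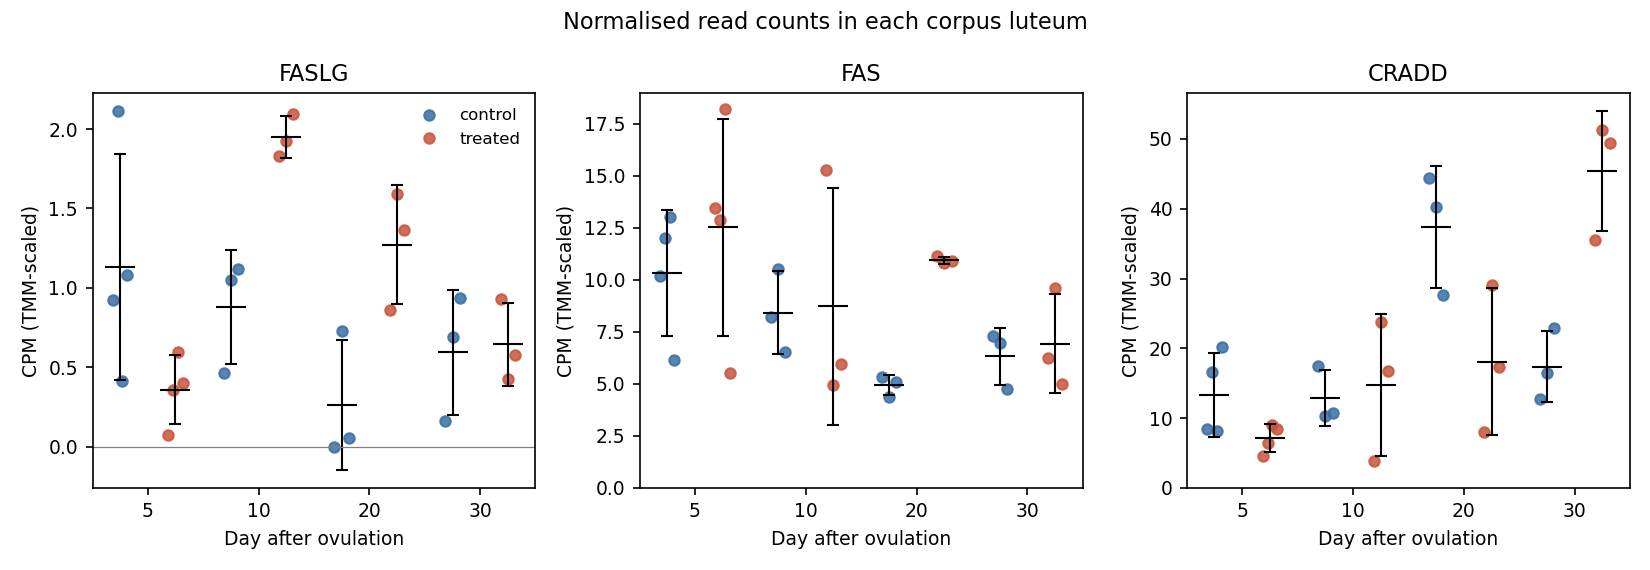
TMM-scaled CPM (linear axes, each gene with its own) of FASLG, FAS and CRADD against day after ovulation. Points are libraries, blue for control and red for treated, and bars give the mean and SD of each group (n = 4 on day 5 and n = 3 on the other days), which for FASLG reach below 0 on day 20. All treated points stand above all controls of their day for FASLG on days 10 and 20, FAS on day 20 and CRADD on day 30. Such a separation was seen for 2.36%, 16.9% and 9.37% of all genes tested on days 10, 20 and 30.

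The receptor FAS had its lowest mean in day 20 controls and its highest in day 5 treated CL. Day 5 controls had 10.2, 12, 13 and 6.15 CPM in replicates 1, 3, 4 and 5, and day 5 treated CL had 13.5, 12.9, 18.2 and 5.53 CPM in replicates 1, 2, 4 and 5. Day 5 treated CL held both the highest FAS level of the series (replicate 4) and a level below those of all 4 day 5 controls (replicate 5). Day 10 controls had 8.21, 10.5 and 6.53 CPM (replicates 2, 3 and 4), against 15.3, 4.94 and 5.96 CPM in day 10 treated CL (replicates 1, 4 and 5). Day 10 treated replicate 1 stood above all controls of that day and the other 2 treated CL below all of them.

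Day 20 gave the tightest FAS values of the series. Controls had 5.35, 4.39 and 5.11 CPM (replicates 1, 2 and 3) and treated CL had 11.1, 10.8 and 10.9 CPM (replicates 2, 3 and 4), which gave means of 4.95 ± 0.501 and 10.9 ± 0.176 CPM (SD, n = 3 each). Each treated value lay within the range of the day 5 controls, and each control value lay below every day 5 value. On day 30 the groups overlapped again, with 7.29, 6.95 and 4.73 CPM in controls (replicates 2, 3 and 4) and 6.24, 9.60 and 4.98 CPM in treated CL (replicates 2, 4 and 5). When the 8 groups were ordered by mean FAS, from day 20 control to day 5 treated (12.5 ± 5.24 CPM, n = 4), the ranges of all neighbours overlapped.

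The adaptor CRADD had its highest levels on days 20 and 30. Day 5 controls had 8.42, 16.6, 8.14 and 20.1 CPM (replicates 1, 3, 4 and 5) and day 5 treated CL 4.63, 6.37, 9.06 and 8.44 CPM (replicates 1, 2, 4 and 5). Day 10 controls had 17.4, 10.4 and 10.7 CPM (replicates 2, 3 and 4), while day 10 treated CL spread from 3.79 CPM in replicate 1 to 23.8 and 16.7 CPM in replicates 4 and 5. The same day 10 treated replicate 1 that had the highest FAS of its group thus had the lowest CRADD of all 26 samples. 

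In day 20 controls CRADD reached 44.3, 40.2 and 27.6 CPM (replicates 1, 2 and 3), whereas day 20 treated CL had 7.96, 29.0 and 17.3 CPM (replicates 2, 3 and 4). On day 30 the positions were exchanged, with 12.8, 16.5 and 22.8 CPM in controls (replicates 2, 3 and 4) and 35.6, 51.3 and 49.4 CPM in treated CL (replicates 2, 4 and 5). The groups overlapped on day 20, where treated replicate 3 stood above the lowest control, and did not overlap on day 30. The highest mean of CRADD was that of day 30 treated CL (45.4 ± 8.60 CPM, n = 3) and the second highest that of day 20 controls (37.4 ± 8.72 CPM, n = 3), 2 groups whose ranges overlapped. The lowest mean was that of day 5 treated CL (7.13 ± 2.02 CPM, n = 4), whose range lay below that of the next group, day 10 controls, and all later neighbours in the order overlapped.

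The first comparison asked what changed with time alone, as the mature controls (days 20 and 30, 6 CL) over the early controls (days 5 and 10, 7 CL). FAS fell by 0.77 on the log2 scale (SE 0.22, 95% interval −1.24 to −0.30), a 1.70-fold lower level with an edgeR P of 0.00322 and an FDR of 0.0241. Early controls ranged from 6.15 to 13 CPM with a median of 10.2, and mature controls from 4.39 to 7.29 CPM with a median of 5.23, so the ranges overlapped. CRADD rose by 1.05 (SE 0.32, interval 0.38 to 1.73), a 2.07-fold higher level with an edgeR P of 0.00455 and an FDR of 0.0299. CRADD ranged from 8.14 to 20.1 CPM (median 10.7) in early and from 12.8 to 44.3 CPM (median 25.2) in mature controls. FASLG had a log2 fold change of −1.29 (SE 0.67) that was not called (edgeR P of 0.0764, FDR of 0.177), from a median of 1.05 CPM to one of 0.425 CPM, and it entered the test only through the early controls (mean 19.6 reads against 7.0 reads). These 2 calls among 3 genes stand beside 20.5% of 13503 genes called in this comparison, 10.1% higher and 10.4% lower. Of the tested genes with a symbol, among which the members were found, 57.5% were called.

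Markers of other tissue moved with time in the same controls. All 6 listed fibroblast genes were called lower by edgeR, from −1.10 (COL1A2) to −1.86 (COL1A1) on the log2 scale, and their sum was 6548 to 21296 CPM in early and 2884 to 7264 CPM in mature controls. All 3 macrophage markers with an identifier (AIF1, CD68 and MSR1) were called lower too, with sums of 37.5 to 125 and 14.3 to 29.0 CPM that did not overlap. Taken singly, AIF1 separated the groups, whereas CD68 and MSR1 overlapped. Groups without overlap, lower in mature controls, were seen for 2.7% of all genes tested. Called lower as well were 2 of 5 smooth muscle genes (TAGLN and ACTG2), 2 of 5 oocyte genes (ZP3 and GDF9) and the luteal gene INHA (−1.62), whereas 2 of 4 endothelial genes (CDH5, 1.02, and KDR, 0.89) were called higher. The luteal genes LHCGR (0.91) and PRLR (0.36) went the other way from INHA and were not called. None of the 4 T and natural killer cell markers was called. These counts stand beside 57.5% of the tested genes with a symbol. The part of these transcripts in the FAS, CRADD and pathway values was not tested.

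Both calls leaned on day 20 and on which groups were fitted together, and that of CRADD also on single libraries. With all 26 samples in 1 fit, FAS (−0.74, edgeR FDR of 0.118) and CRADD (0.964, edgeR P of 0.0116) missed the thresholds. With day 30 as the only mature group, an alternative chosen after seeing the data, the log2 fold change of FAS was −0.60 (edgeR P of 0.0624, FDR of 0.222) and that of CRADD 0.40 (edgeR P of 0.23, FDR of 0.456), and neither was called. With day 20 alone they were −0.97 (edgeR FDR of 0.039) and 1.48 (edgeR FDR of 0.0138). FAS was called in all 13 fits that left out 1 library, at −0.86 to −0.67, and CRADD in 9 of 13, at 0.87 to 1.21. The CRADD call was lost without day 10 control replicate 3 (1.0), day 10 control replicate 4 (0.98), day 20 control replicate 1 (0.87) or day 20 control replicate 2 (0.91). Between neighbouring days in controls, the step of the members with the smallest P was that of CRADD from day 10 to day 20, at 1.55 (SE 0.52, edgeR P of 0.00712, FDR of 0.197), followed by −1.11 from day 20 to day 30 (SE 0.52, edgeR P of 0.0431, FDR of 0.973). Neither step was called by edgeR, in a test that called 0.0776% of 14171 genes between days 10 and 20 and 0% between days 20 and 30 (2.13% at an unadjusted P under 0.05). DESeq2 called the step of CRADD from day 10 to day 20 (FDR of 0.0759), as it did 5.61% of genes.

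In treated CL the same contrast was called for CRADD and not for FAS or FASLG. FAS had a log2 fold change of −0.27 (SE 0.36, interval −1.04 to 0.50, edgeR FDR of 0.685) and FASLG one of −0.09 (SE 0.63, interval −1.43 to 1.25, edgeR FDR of 0.941). CRADD rose by 1.63 (SE 0.49, interval 0.60 to 2.66), a 3.09-fold higher level with an edgeR P of 0.00423 and an FDR of 0.0948, where 4.65% of 13747 genes were called (1.54% higher). Of the tested genes with a symbol, 10.4% were called. CRADD levels ranged from 3.79 to 23.8 CPM in 7 early and from 7.96 to 51.3 CPM in 6 mature treated CL. The CRADD call held in only 3 of 13 fits without 1 library, at 1.45 to 1.99, and with day 20 as the only mature group the value was 0.84 (edgeR FDR of 0.741). Of the tissue markers, the macrophage gene AIF1 (−1.26) and the luteal gene INHA (−2.20) were called lower and the luteal gene LHCGR (1.72) higher with time in treated CL, and their part in the CRADD value was not tested. None of the fibroblast, smooth muscle, endothelial, oocyte or T and natural killer cell markers was called there. The treated contrast minus the control contrast was 0.48 (SE 0.41) for FAS, 1.44 (SE 0.83) for FASLG and 0.52 (SE 0.50) for CRADD, with edgeR P of 0.258, 0.0955 and 0.307, and none was called. The FASLG difference was 2.91 without day 20 control replicate 2. In that test 0% of 14171 genes were called and 7.91% had an unadjusted P under 0.05.

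**Figure D2:**
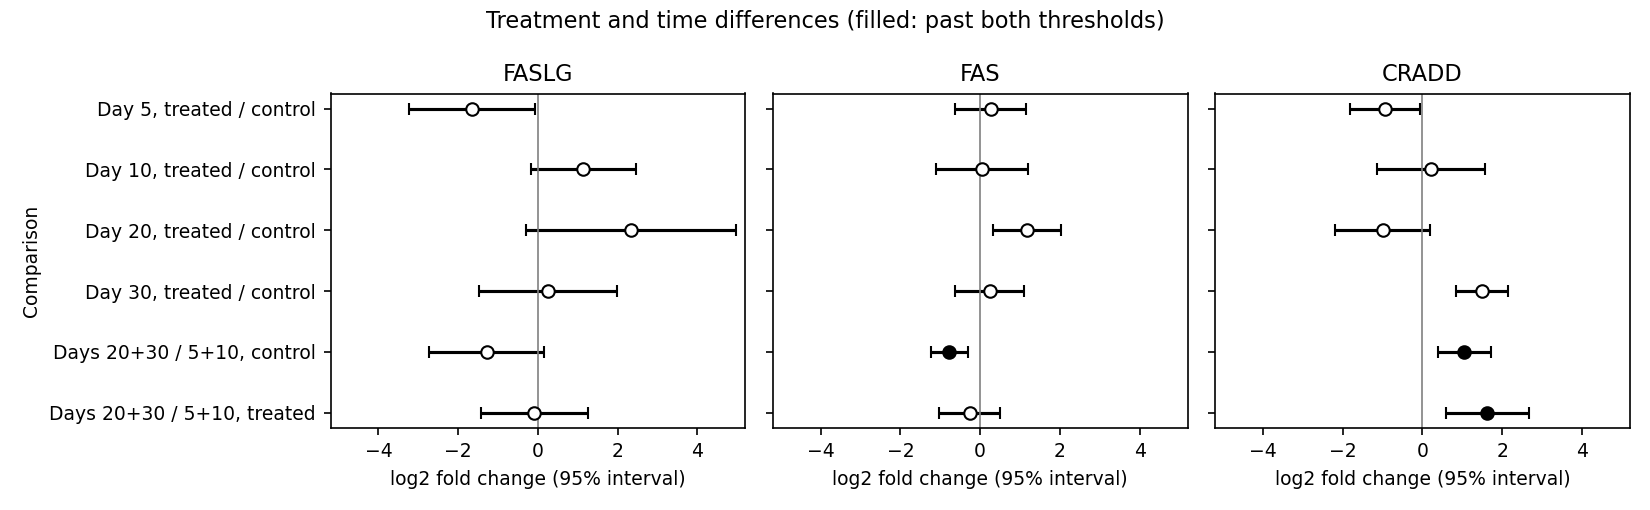
Log2 fold changes of FASLG, FAS and CRADD in 4 comparisons of treated with control CL and 2 comparisons of mature with early CL. Points are edgeR estimates with their 95% intervals, and filled points passed both thresholds. FAS and CRADD were called with time in controls (−0.77 and 1.05), CRADD also in treated CL (1.63), and no treatment comparison by day was called.

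The second question was what firocoxib changed on each day, and none of the 3 genes was called by edgeR on any of the 4 days. On day 5, the log2 fold changes of treated over control were −1.65 for FASLG (SE 0.72, interval −3.24 to −0.07), 0.27 for FAS (SE 0.40, interval −0.63 to 1.16) and −0.93 for CRADD (SE 0.40, interval −1.82 to −0.05). The ligand and the adaptor had unadjusted edgeR P of 0.0425 and 0.0399 with an FDR of 0.412 each, and the receptor a P of 0.524. No member was called by DESeq2 either, which called 0.733% of genes. The ranges of all 3 genes overlapped. On that day 0% of 13651 genes were called and 11.8% had an unadjusted P under 0.05. FASLG entered the test only through the controls (mean 22.3 reads against 7.25 in treated CL). Smooth muscle genes (ACTA2, ACTG2, CNN1, MYH11 and TAGLN, all 5 listed) summed to 507 to 3197 CPM in these treated CL and 264 to 464 CPM in their controls. Taken singly, ACTA2, ACTG2 and CNN1 were higher in all treated CL, whereas MYH11 and TAGLN overlapped. Groups without overlap, higher in treated CL, were seen for 4.78% of all genes tested. The part of these smooth muscle genes in the values of the members was not tested.

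On day 10, FASLG had a log2 fold change of 1.14 (SE 0.58, interval −0.18 to 2.45, edgeR P of 0.0818, FDR of 1.0), and all 3 treated CL were above all 3 controls. Such a separation upward was seen for 2.36% of the 13416 genes tested on that day, of which 0% were called and 0.902% had an unadjusted P under 0.05. FAS (0.05, SE 0.51) and CRADD (0.22, SE 0.61) had wide intervals that included 0, namely −1.10 to 1.20 and −1.15 to 1.58. No member was called by DESeq2, which called 0% of genes. The sum of T and natural killer cell markers was also above all controls in 2 of the 3 treated CL. The 4 of 17 listed markers that had an identifier (CD3G, GZMB, KLRD1 and LCK) summed to 8.61, 9.94 and 48.9 CPM in day 10 treated replicates 1, 4 and 5, against 6.11 to 8.83 CPM in controls, and CD3G was at 0 in 1 of the treated libraries. The sum of 48.9 CPM was mostly GZMB, the cytotoxic protease granzyme B, at 1.99 to 42.9 CPM in treated and 1.10 to 1.94 CPM in control CL. Only GZMB separated the groups. LCK (log2 fold change 0.28), CD3G (−0.16) and KLRD1 (−0.35) overlapped between them, the last 2 with lower means in treated CL. The part of these markers in the FASLG values was not tested.

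On day 20, the log2 fold change of FAS was 1.18 (SE 0.38, interval 0.32 to 2.04), a 2.26-fold higher level in treated CL, with an edgeR P of 0.0135 and an FDR of 0.197, which misses both thresholds. All 3 treated CL were above all 3 controls, as were 16.9% of the 13726 genes tested, of which 0.102% were called by edgeR. The value ranged from 1.12 to 1.23 without each library in turn. DESeq2, which called 10.8% of genes in this comparison, put FAS past the thresholds (1.13, FDR of 0.0508). FASLG had a log2 fold change of 2.33 (SE 1.15, interval −0.31 to 4.97, edgeR P of 0.0762, FDR of 0.333), also with all treated CL higher, and it entered the test only through them (mean 25.3 reads against 4.33). Its size depended on which control was kept, at 5.27 without control replicate 2 and 1.76 without control replicate 1. CRADD went the other way, at −1.0 (SE 0.52, interval −2.19 to 0.19, edgeR P of 0.0898, FDR of 0.353), with overlapping groups.

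Day 20 treated CL also differed in sums of other transcripts, whose part in the FAS and FASLG values was not tested. Of these markers, edgeR called only 4 of 5 oocyte genes (BMP15, GDF9, ZP3 and ZP4). That stands beside 0.102% of all genes and 0.279% of those with a symbol. Groups without overlap, higher or lower in treated CL, were seen for 16.9% and 13.3% of all genes tested. Taken singly, CD3G, KLRD1, COL1A1, COL3A1, PDGFRA, DCN, LUM and ACTA2 overlapped between the groups. The T and natural killer cell markers summed to 8.15 to 11.3 CPM in treated and 2.16 to 4.81 CPM in control CL. The 6 listed fibroblast genes summed to 9822 to 13807 CPM against 2884 to 7264 CPM, although LUM among them had a mean of 196 CPM in treated and 555 CPM in control CL (log2 fold change −1.45). The 5 smooth muscle genes, among them ACTA2, summed to 425 to 984 CPM against 141 to 279 CPM. All 5 listed oocyte genes (BMP15, GDF9, ZP2, ZP3 and ZP4) summed to 148 to 258 CPM in treated CL and to 4.57 to 9.14 CPM in controls. The 3 luteal genes summed to 276 to 436 CPM against 491 to 536 CPM, which came from PRLR (mean 131 CPM against 343 CPM, all treated CL lower), while LHCGR (64.8 against 65.7 CPM) and INHA (140.2 against 111 CPM) overlapped between the groups.

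On day 30, CRADD had a log2 fold change of 1.5 (SE 0.28, interval 0.85 to 2.15), a 2.83-fold higher level in treated CL. Its edgeR P of 0.000685 was the 12th smallest of 13196 genes, yet its FDR was 0.599, since 1.36% of the genes had an unadjusted P under 0.01 and 0% were called. All 3 treated CL were above all 3 controls, as were 9.37% of all genes tested, and the value stayed between 1.21 and 1.74 without each library in turn. DESeq2, which called 0.879% of genes, put CRADD past the thresholds (1.42, FDR of 0.0102). FAS (0.24, SE 0.38) and FASLG (0.26, SE 0.75) overlapped between the groups, with intervals of −0.63 to 1.11 and −1.48 to 1.99. Endothelial markers (CDH5, KDR, PECAM1 and VWF, 4 of 7 listed) summed to 506 to 1008 CPM in these treated CL and 1415 to 1721 CPM in their controls. Each of the 4 was lower in all treated CL, as were 5.25% of all genes tested. Of the other markers, only KLRD1 separated the groups (log2 fold change 1.54). Oocyte sums overlapped, at 5.93 to 128 CPM in treated and 6.64 to 23.3 CPM in control CL. No marker was called by edgeR, and the part of these markers in the CRADD value was not tested.

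Whether the response to firocoxib differed between days was tested in 1 fit over the 8 groups. The joint test over the 4 days had an edgeR P of 0.0186 for FASLG, 0.00832 for CRADD and 0.265 for FAS, with FDR of 0.462, 0.415 and 0.757, so none was called, as for 0% of 14171 genes by edgeR (2.39% had an unadjusted P under 0.01). DESeq2 called 1.72% of genes in the joint test and none of the 3 members. Of the 6 pairs of days, FASLG differed most between day 20 and day 5, where the 2 log2 fold changes lay 3.88 apart (SE 1.17, interval 1.45 to 6.31, edgeR P of 0.00314, FDR of 0.494). That difference was 6.82 without day 20 control replicate 2 and 3.38 without day 20 control replicate 1. For CRADD, day 30 minus day 20 was 2.43 (SE 0.73, interval 0.92 to 3.95, edgeR P of 0.00299, FDR of 0.228) and day 30 minus day 5 was 2.29 (SE 0.69, edgeR P of 0.00295, FDR of 0.616). No difference between days was called for any member by edgeR, whereas DESeq2 called the FASLG difference of day 20 minus day 5 (3.94, FDR of 0.0919), as it did 0.374% of genes, and the CRADD difference of day 30 minus day 20 (2.48, FDR of 0.0667), as it did 2.5% of genes. Within treated CL, FASLG was 2.39 higher on day 10 than on day 5 on the log2 scale (SE 0.79, edgeR P of 0.00623, FDR of 0.384), which was not called by edgeR, as for all but 0.00706% of genes, and was called by DESeq2 (FDR of 0.0826), as were 1.62% of genes.

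Ratios of reads within a library do not depend on its depth, and each combines the levels of 2 members given above. They were not computed for other pairs of genes, so no share of separated pairs stands beside them. On day 20, controls had 8.29, 9.17 and 5.40 CRADD reads per FAS read (replicates 1, 2 and 3) and treated CL 0.715, 2.69 and 1.59 (replicates 2, 3 and 4). The controls of day 20 therefore held more CRADD per FAS than any treated CL of that day. On day 30 the order was turned around, with 1.75, 2.38 and 4.83 in controls (replicates 2, 3 and 4) and 5.70, 5.35 and 9.91 in treated CL (replicates 2, 4 and 5). Early CL had between 0.248 (day 10 treated replicate 1) and 4.82 (day 10 treated replicate 4) CRADD reads per FAS read. FASLG reads per 100 FAS reads were lowest on average in day 5 treated CL (3.46 ± 2.78, n = 4, against 11.8 ± 7.03 in day 5 controls) and highest in day 10 treated CL (28.7 ± 14.6, n = 3, against 10.9 ± 5.79 in day 10 controls). On day 20 the ratio of ligand to receptor reads overlapped between treated CL (7.73 to 14.7) and controls (0 to 16.7).

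**Figure D3:**
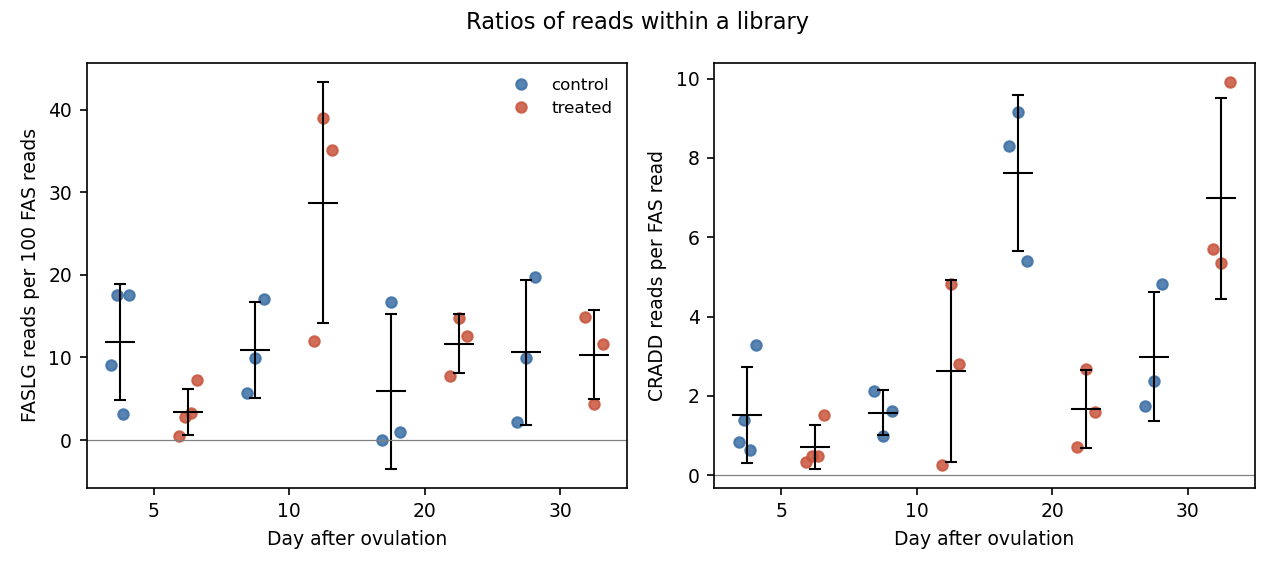
FASLG reads per 100 FAS reads (left) and CRADD reads per FAS read (right) in each library against day after ovulation, on linear axes. Points are libraries, blue for control and red for treated, and bars give the mean and SD of each group, which can reach below 0. CRADD per FAS was higher in controls on day 20 (5.40 to 9.17 against 0.715 to 2.69) and higher in treated CL on day 30 (5.35 to 9.91 against 1.75 to 4.83).

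Over the 26 samples, log2 CPM of FAS and CRADD had a Pearson r of −0.65 (Spearman −0.69), and of −0.54 after the group means were removed. FAS with FASLG had an r of 0.11, and of −0.21 within groups, and FASLG with CRADD one of −0.06, and of 0.32 within groups. These are descriptions over samples that share groups, days and library composition. Group membership accounted for 46.2% of the sum of squares of FAS, 61.7% of that of FASLG and 67.9% of that of CRADD, beside a median of 39.9% over all genes kept. The members were found through the study's selections on these samples, so a share above that median is not independent evidence. Among the 4351 other genes with a symbol that passed the filter, those most like FAS over the 26 samples were TRIP10 (r = 0.84), ARHGEF19 (0.84), ADAMTS8 (0.82), ADCY5 (0.82) and NUMBL (0.81). The genes most like FASLG had lower r, at 0.63 for ZNF555, 0.61 for CNTN4, 0.59 for KDELC1, 0.58 for METTL24 and 0.58 for FCER1A. Among the genes most like CRADD were GPALPP1 (0.92), DST (0.90), AGBL3 (0.90) and PLEKHA5 (0.89). For CRADD, 196 genes lay above r = 0.8 and 250 below −0.8, against 6 and 0 for FAS and 0 and 0 for FASLG. All of these candidates come from the study's own selections on these samples. Such counts were not made for other genes, and FASLG rested on few reads (median 14.5 per library), so the counts are descriptive only.

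Of 45 other genes of the death receptor pathway that were listed, 14 had an identifier. All 14 come from the study's own selections on these samples, and of the genes with a symbol that were tested 57.5% were called with time in controls, so their count is not independent evidence. With time in controls, 1 was called higher and 5 lower, and the median log2 fold change was −0.47 beside 0.02 over all genes. The lower genes were the ligand TNFSF12 (TWEAK, −1.09, SE 0.22) and its receptor TNFRSF12A (Fn14, −1.93, SE 0.39), the tumour necrosis factor receptor TNFRSF1A (−0.56, SE 0.14), the adaptor TRAF1 (−1.39, SE 0.45) and DIABLO (−0.37, SE 0.13), a mitochondrial protein that antagonises inhibitors of apoptosis. The higher gene was FAIM (0.58, SE 0.20), an inhibitor of Fas-induced apoptosis. Leaving out 1 library gave between 3 and 7 called genes, with 3 without day 5 control replicate 4, day 10 control replicate 4 or day 30 control replicate 4. With time in treated CL, FAIM was called higher (1.56, SE 0.39) and TNFRSF1A (−1.17, SE 0.32) and TNFRSF12A (−2.22, SE 0.55) lower, beside 10.4% of genes with a symbol. These 3 calls fell to 0 without day 5 treated replicate 2 or 5 or any day 30 treated replicate, and to 1 without day 20 treated replicate 3 or 4.

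With treatment, none of the 14 genes was called by edgeR on any day, while 4, 0, 4 and 3 of those tested had an unadjusted P under 0.05 on days 5, 10, 20 and 30 and DESeq2 called 1, 0, 4 and 1. Over all genes tested, 11.8%, 0.902%, 17% and 8.14% had an unadjusted P under 0.05 on these days and DESeq2 called 0.733%, 0%, 10.8% and 0.879%. The 14 genes were known only through the study's own selections on these samples, so these shares are not a like comparison. Of the tested genes with a symbol, edgeR called 0%, 0%, 0.279% and 0%. The DESeq2 share among those was not computed, so the counts are descriptive only. On day 5 the smallest P upward was that of the receptor TNFRSF1B (1.63, SE 0.43, edgeR FDR of 0.412) and downward that of FAIM (−0.73, SE 0.29, edgeR FDR of 0.412). On day 10 the same genes had the smallest P, at 0.77 for TNFRSF1B and −0.75 for FAIM. On day 20 they were FAIM2 (2.16, SE 0.44, edgeR FDR of 0.125), another inhibitor of Fas-induced apoptosis, and the initiator caspase CASP10 (−1.07, SE 0.40, edgeR FDR of 0.243). On day 30 they were FAIM (0.87, SE 0.24) and the initiator caspase CASP8 (−1.44, SE 0.37), each with an edgeR FDR of 0.599, and TRAF1 did not pass the filter on that day.

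**Figure D4:**
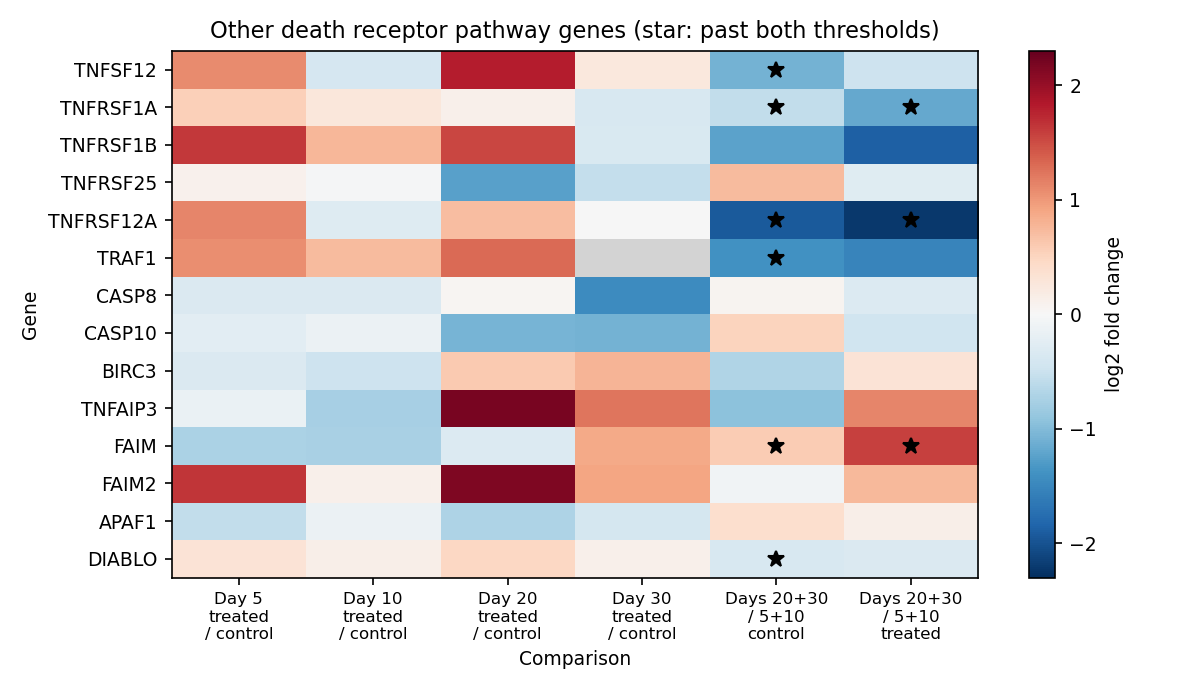
Log2 fold changes (colour, from −2.3 to 2.3) of the 14 other death receptor pathway genes with an identifier (rows) in the 4 treatment comparisons and 2 time comparisons (columns). Stars mark genes past both thresholds and grey a gene not tested. Stars stand only in the time columns, 6 in controls and 3 in treated CL.

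The annotation limits what the FAS and CRADD counts can be assigned to. In RefSeq's table for the dog assembly UU_Cfam_GSD_1.0, which is not the build of the counts, FAS overlaps 2 loci of long non-coding RNA and CRADD overlaps 5 other loci (3 of long non-coding RNA, 1 protein-coding gene and 1 pseudogene), while FASLG overlaps none. The library kit named in the labels does not mark strand, so reads of such transcripts and of the gene itself could not be told apart where their exons coincide.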

How the data were processed

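RNA was sequenced from 26 canine CL (8 groups by day and treatment, 3 or 4 bitches each). The authors aligned single-end reads to CanFam3.1 with STAR and deposited raw counts per Ensembl gene from featureCounts, without normalisation; the tool versions and the strand setting are not given in the sources used here. Groups followed the labels. A gene was kept where 1 of the groups compared averaged 10 reads or more. Counts were scaled by TMM factors and tested with edgeR 4.0.16 (R 4.3.3, quasi-likelihood, two-sided, Benjamini-Hochberg FDR), each comparison on its own samples and differences between days in 1 fit over all 26. Calls needed P under 0.01 and FDR under 0.1. SE was the log2 fold change over the root of F. Log2 CPM used a prior count of 2. DESeq2 1.42.0, limma 3.58.1 (voom), RLE factors, other filters and omission of each library were alternatives. Scripts were tested on simulated data. Named genes were the 3 members, pathway genes past the thresholds or with the smallest P per direction, and the 5 genes most like each member, of which 1 is not reported here. Members and lists were chosen with earlier results of these data known. Replicate counts differed beyond sampling noise (chi-square per degree of freedom at least 46.6). Symbols were known for 4355 of 19856 genes. Sequences were not used here.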

Additional observations from a re-analysis of the deposited data

Results flagged for a closer look

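One value of the members was set apart from its group by the gap test for a single extreme sample. FASLG in early controls (days 5 and 10, n = 7) reached 2.11 CPM in day 5 control replicate 3, where the next sample had 1.12 CPM, so that the gap took 0.585 of the whole range. That library held 38 FASLG reads, and its summed T and natural killer cell markers (0.833 CPM) were the lowest of all 4 day 5 controls. Of 18 such groups tested, 1 was flagged, and chance flags about 1 in 20.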

How the results depend on the processing

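Of 345 values recomputed under other settings, 314 kept their direction and their side of the thresholds. DESeq2 newly passed FAS on day 20 (1.13), CRADD on day 30 (1.42), FASLG for day 20 minus 5 (3.94), CRADD for day 30 minus 20 (2.48), CRADD from day 10 to 20 in controls (1.57) and FASLG from day 5 to 10 in treated CL (2.42). Its pathway calls were 1, 4 and 1 with treatment on days 5, 20 and 30 (edgeR 0 each) and 5 with time in treated CL (edgeR 3). The call of CRADD with time in treated CL was lost with RLE factors (1.62), no filter (1.63), limma voom (1.63), FDR under 0.05 alone (1.63), where pathway calls were 0, and day 20 alone (0.84). With all 26 samples in 1 fit, FAS (−0.74) and CRADD (0.96) with time in controls were no longer called, pathway calls were 2 with time in controls, 2 on day 20 and 5 with time in treated CL, and FASLG with time in treated CL turned to 0.10. With day 30 alone, the control calls of FAS (−0.60) and CRADD (0.40) were lost. With day 20 alone, FAS (0.0756) and FASLG (0.33) with time in treated CL turned sign. Under voom, FAS (−0.12) and CRADD (−0.0861) on day 10, FASLG with time in treated CL (0.38) and CRADD from day 5 to 10 in controls (0.0128) turned sign. The cause was not tested.

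Same-numbered samples did not deviate together (mean correlations −0.39 to 0.15 over the comparisons with 2 or more shared numbers), so the numbers were not taken to pair the bitches. A replicate block ended the CRADD call with time in treated CL (1.55, edgeR FDR = 0.155) and changed no other call of the members.

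Leaving out 1 library gave 1241 of 1299 values unchanged in direction and call. With time, ranges were 0.87 to 1.21 (CRADD, controls), 1.45 to 1.99 (CRADD, treated), −0.30 to 0.18 (FASLG, treated), and 3 to 7 and 0 to 4 pathway calls in controls and treated CL. On single days they were −0.32 to 0.67 (CRADD, day 10), −0.63 to 0.30 (FAS, day 10), −0.14 to 0.43 (FAS, day 30), −0.32 to 0.73 (FASLG, day 30, 5 fits, as FASLG fell under the filter in the other) and 0 to 3 pathway calls on day 20, with 3 without day 20 treated replicate 2. Between days they were −0.34 to 0.21 (CRADD, control, 10 over 5), −0.61 to 0.16 (FASLG, control, 10 over 5), −0.26 to 0.82 (CRADD, treated, 20 over 10), −0.66 to 0.21 (CRADD, response on day 20 minus 5) and, for the response of FAS, −0.91 to 0.12 (day 10 minus 5), −0.22 to 0.76 (day 30 minus 10) and −0.45 to 0.0934 (day 30 minus 5). Depth limits FASLG most, with a median of 14.5 reads per library.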
